A study of Mus musculus with 6 samples.

Results

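The DNA replication machinery and nucleotide supply genes described here are 47 mouse genes, chosen by symbol for their roles in origin licensing, helicase activation, DNA synthesis, Okazaki fragment processing, deoxynucleotide supply and chromatin assembly at forks. All 47 of 47 were found among the 25230 genes of the deposited table. The libraries came from livers of male C57BL/6 mice, each given the liver carcinogen diethylnitrosamine (DEN) by intraperitoneal injection at 25 mg/kg when 14 days old. At 7 months, regions were cut out of serial sections of formalin-fixed, paraffin-embedded (FFPE) liver with a tissue dissection instrument. One group holds 3 regions of normal adjacent liver and the other 3 small glycogen-rich regions, which the sample titles call small tumours and which are called lesions here. Both groups were exposed to DEN, and no untreated liver is used here. The labels do not tie a region to an animal, so p-values measure only the spread between these regions. They are too small if regions of the same group share an animal. If a lesion and its adjacent region share one, the main fit ignores that pairing and its p-values can be too large. Each region is bulk tissue, in which fewer cells of a type and less RNA per cell cannot be told apart.

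A cell copies its genome once per division. In G1 the origin recognition complex, CDC6 and CDT1 load the MCM2 to MCM7 ring, the inactive helicase, onto origins, and geminin blocks CDT1 afterwards so that no origin is licensed again. In S phase CDC45 and the GINS complex join the ring, and MCM10 is needed to start unwinding. Polymerase alpha with primase lays primers, and polymerases delta and epsilon extend them with the sliding clamp PCNA. Ribonucleotide reductase, thymidylate synthase and thymidine kinase supply the deoxynucleotides. Most hepatocytes of adult liver are quiescent, and many of these genes are transcribed under E2F transcription factors as cells enter the cycle.

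Total counts were 6352898 to 6542997 in the normal libraries and 7294716 to 7412833 in the lesion libraries, with 16114 to 16407 genes detected in each. The members together took 0.0337 to 0.034% of the counts in normal libraries and 0.0364 to 0.041% in lesions. In absolute terms these were 2143 to 2225 counts and 2679 to 3023 counts, so that a single member often rests on few counts. Lesion 3 stood apart from the other lesions before any member was considered. The chi-square per degree of freedom between libraries, which is 1 for pure sampling noise, was 1.57 between lesions 1 and 2 but 11.2 between lesion 3 and each of them. Among the normal libraries it was 1.37 between libraries 2 and 3 and 3.15 and 3.38 for library 1 against them. No pair was within sampling noise, and no library was merged. Each result that leans on lesion 3 is given with and without it.

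A larger share of the replication genes than of all genes was higher in lesions, and 1 of them was lower. Levels are CPM, counts scaled to a common library total, computed on library sizes with TMM scaling (a trimmed mean of log ratios between libraries), and a gene was called higher or lower at an adjusted p under 0.05 in edgeR's quasi-likelihood test over all 12506 tested genes. Of the 47 members 41 had enough counts to be tested, and 16 of these were called higher (39%), against 18.7% of all tested genes. Only Mcm10 was called lower, or 2.44% of the tested members, against 18.4% of all tested genes. The remaining 24 were not called, and 7 of them had an unadjusted p under 0.05 (Cdc45, Gins4, Pold2, Rpa2, Rrm1, Tyms and Chaf1b). The members that missed the count filter were Orc1, Gins2, Gins3, Prim1, Pole2 and Rfc4. Cdc6 passed that filter through its lesion libraries alone.

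The tested members had a median log2 change of 0.50, where all tested genes had a median of 0.00. A positive change was seen in 32 of the 41 (78%), against 50.4% of all tested genes. In 22 of the 41 every lesion library lay above every normal library (53.7%), against 24.2% of all tested genes, and in 1 every lesion lay below (2.44%, against 24%). The other 18 overlapped. Those 22 are the 16 called members with Orc6, Rpa2, Rnaseh2a, Rrm1, Tyms and Chaf1b. The authors' deposited table of their own test, in which all 47 have an adjusted p, holds 15 members as higher and 1 as lower at the same threshold. It leaves out Pcna, whose adjusted p in the authors' deposited table is 0.0912.

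**Figure D1:**
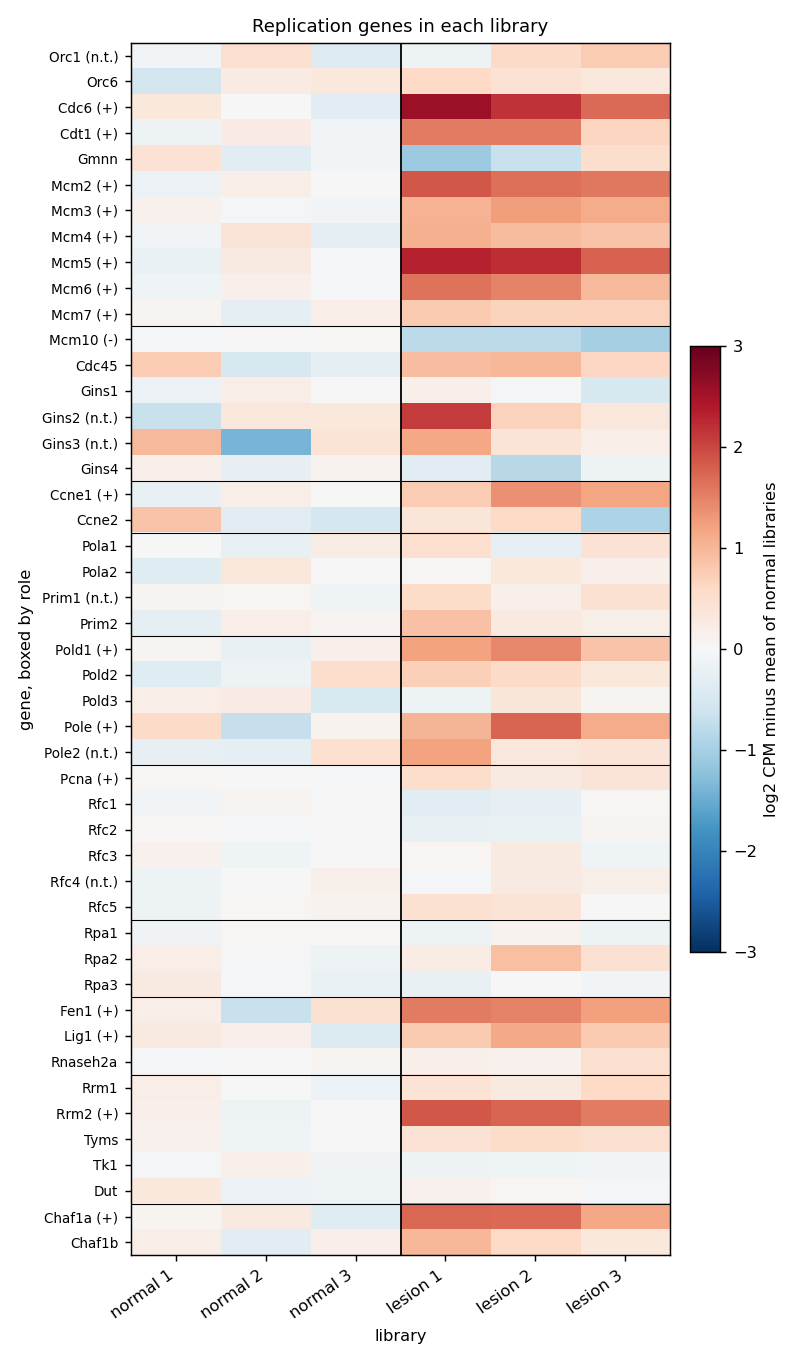
Heat map of the 47 members (rows, boxed by role) in the 6 libraries (columns). Colour gives log2 CPM minus the mean of the normal libraries, from -1.39 to 2.56 over all members and libraries; a plus or minus sign marks called members and n.t. those not tested. The lesion columns are reddest in the licensing box at the top, while Mcm10 is the blue row of the helicase activation box.

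Lesion 3 was the lowest of the lesions in 10 of the 16 members called higher (62.5%), against 49.5% of all genes called higher. Among all 41 tested members it was lowest in 21 (51.2%), against 38.2% of tested genes. Measured from the normal mean, the median log2 difference over members was 0.52 in lesion 1, 0.54 in lesion 2 and 0.45 in lesion 3. Without lesion 3, 18 members were called higher and 4 lower, with Pold2 and Chaf1b joining the former and Gmnn, Gins4 and Rfc1 the latter. That fit called 2701 genes higher and 2796 lower overall.

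Markers of proliferation moved with the members, as did several cell type markers. All 6 tested of 8 proliferation markers were called higher, though Ccna2 and Plk1 passed the count filter through their lesion libraries alone, and the summed level of the list went from 11.3 to 15.4 CPM in normal libraries to 42.1 to 108.8 CPM in lesions. Mki67, whose protein marks cycling cells, read 7.86, 6.46 and 7.56 CPM in normal libraries 1 to 3 and 60.5, 70.0 and 25.2 CPM in lesions 1 to 3 (log2 2.83, edgeR adjusted p = 0.0175). Ccna2, Plk1, Cdk1, Birc5 and Top2a, which act in S phase and mitosis, rose by 2.62, 2.63, 1.80, 1.24 and 2.91 on the log2 scale. Ccnb1 and Aurkb were too low to test, and Ccnb1 read 3.13, 2.94 and 0.293 CPM in lesions 1 to 3. The median log2 difference of the tested proliferation markers from normal was 2.64 in lesion 1, 2.55 in lesion 2 and 1.505 in lesion 3, where it was smallest.

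Hepatocyte markers were abundant in every library, with a summed level of 66147 to 70802 CPM in normal libraries and 109953 to 133493 CPM in lesions. Alb made up much of these sums, at 32380 to 35459 CPM in normal libraries and 75267 to 95287 CPM in lesions. The median log2 change of the tested hepatocyte markers was -0.13. Of 7 tested, Alb, Apoa1 and Serpina1a were called higher and Ttr, Cps1 and Apob lower. All 8 macrophage and Kupffer cell markers were called lower, with sums of 749.1 to 807 CPM and 451.9 to 462.9 CPM, and Marco had the highest mean in normal libraries and Csf1r in lesions. Among cholangiocyte markers Sox9 and Spp1 were called higher, with Spp1 at 16.1 to 19.7 CPM in normal libraries and 110.9 to 145.6 CPM in lesions, while the defining keratins Krt19 and Krt7 and Epcam were too low to test. Among 8 stellate cell and fibroblast markers Col1a1, Col1a2 and Col3a1 were called higher and Lrat lower, with sums of 336.9 to 344.9 CPM and 375.9 to 429.1 CPM. Endothelial sums overlapped, at 515.8 to 519.1 CPM and 491.3 to 525.9 CPM, and Lyve1 was called higher. Markers of T and NK cells summed to 8.57 to 10.3 CPM and 8.4 to 11.3 CPM, those of B and plasma cells to 6.46 to 9.37 CPM and 4.42 to 7.28 CPM (Jchain was called lower), and those of neutrophils to 8.31 to 12.9 CPM and 8.69 to 10.7 CPM, with Ly6g, Mpo and Elane at 0 in every library. The erythroid list summed to 133.6 to 142.8 CPM and 75.8 to 94.5 CPM, Alas2 was its highest gene and was called lower, and its globin genes Hbb-bs and Hbb-bt were at 0 throughout. The part of these cell types and of the cycling share in the member results was not tested.

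Origin licensing held the largest share of the rises. Of its 11 members 10 were tested and 8 were called higher, where 18.7% of all tested genes were. None was called lower, against 18.4% of all tested genes, and 2 were not called (Orc6 and Gmnn). The median log2 change was 1.27, and Cdc6 passed the count filter through its lesion libraries alone. All 6 genes of the MCM2 to MCM7 ring were called higher. Over the 10 tested licensing genes the median log2 difference from normal was 1.31 in lesion 1, 1.36 in lesion 2 and 0.92 in lesion 3.

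Mcm5 (Entrez 17218, GRCm38.p6 chr8:75109468-75128439), a ring subunit at the gate through which DNA enters, read 1.81, 2.64 and 2.03 CPM in normal libraries 1 to 3 and 11.8, 10.9 and 8.05 CPM in lesions 1 to 3. The groups were far apart, with means of 2.16 ± 0.43 and 10.3 ± 1.97 CPM (SD, n = 3 each), a log2 change of 2.24 (SE 0.241, edgeR adjusted p = 4.46e-07). Mcm2 (Entrez 17216, chr6:88883474-88898780), the other subunit of that gate, read 3.33, 4.26 and 3.78 CPM in normal libraries and 14.4, 12.5 and 11.9 CPM in lesions, a log2 change of 1.76 (SE 0.188, edgeR adjusted p = 3.96e-07). Every lesion library was again above every normal one.

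Mcm6, part of the catalytic core of the ring, read 5.29, 6.46 and 5.67 CPM in normal libraries and 18.4, 16.7 and 11.7 CPM in lesions (log2 1.42, SE 0.188, edgeR adjusted p = 6.69e-06). For Mcm3, the partner of MCM5 in the ring, the levels were 5.74, 4.99 and 4.94 CPM and 11, 12.7 and 11.6 CPM (log2 1.17, SE 0.176, edgeR adjusted p = 3.1e-05). Both genes kept the groups apart. Mcm4, a target of the origin-firing kinase, read 5.14, 7.2 and 4.36 CPM and 11.8, 10.8 and 10.1 CPM (log2 0.97, SE 0.196, edgeR adjusted p = 0.000616). Mcm7, also in the catalytic core, had the smallest change of the ring genes, from 11, 8.66 and 12.1 CPM to 18.4, 16.8 and 17 CPM (log2 0.71, SE 0.146, edgeR adjusted p = 0.000677).

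The ring holds each subunit once, so levels per gene length can be set side by side. FPKM, the fragments of a gene scaled by its length and by library size, is the scale the authors deposited for this. In each normal library Mcm5 was the lowest and Mcm7 the highest of the ring genes, 0.522 and 3.8 FPKM in library 1, 0.763 and 2.99 FPKM in library 2 and 0.587 and 4.15 FPKM in library 3. The highest was thus 7.27, 3.92 and 7.08 times the lowest, where Mcm5 had 12, 18 and 14 counts. In ratio the ring genes lay closer in lesions, with the highest at 1.94, 1.94 and 2.52 times the lowest in lesions 1 to 3. Their difference in FPKM was not smaller in every lesion. Mcm7 was still the highest there, at 6.32, 5.77 and 5.86 FPKM, and the lowest was Mcm4 in lesions 1 and 2 and Mcm5 in lesion 3. The ratio of Mcm5 to Mcm7 was 0.138, 0.255 and 0.141 in normal libraries and 0.538, 0.544 and 0.397 in lesions on this scale, without overlap (exact permutation test, two-sided p = 0.1, 0.15 adjusted over 6 ratios, where 0.1 is the smallest p that 3 against 3 allows). Mcm5 and Mcm7 had the largest and smallest changes of the ring genes, so their ratio restates those changes and is not separate evidence. The ring genes summed to 9.77, 10.1 and 9.94 FPKM in normal libraries and to 24.9, 23.4 and 20.9 FPKM in lesions.

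**Figure D2:**
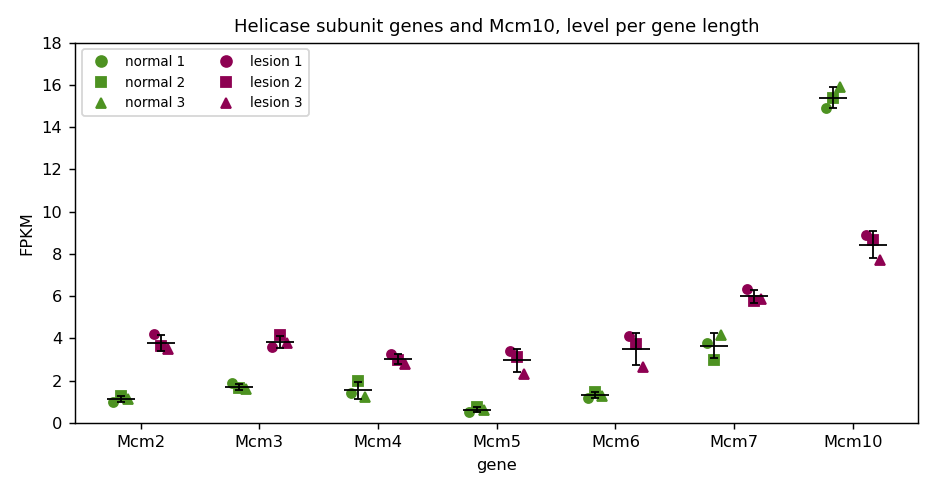
FPKM (linear axis) of the 6 ring genes and Mcm10 in each library, normal in green and lesion in purple, with the mean and SD of 3 libraries in black. The ring genes lie higher in lesions, where the highest is a smaller multiple of the lowest. Mcm10 goes from 14.9 to 15.9 FPKM in normal libraries to 7.71 to 8.91 FPKM in lesions.

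The loaders of the ring moved in the same direction. Cdc6 (Entrez 23834, chr11:98907709-98923942), the ATPase that recruits the ring to the origin complex, had 4, 3 and 2 counts in normal libraries and 28, 21 and 14 counts in lesions. In CPM these were 0.605, 0.441 and 0.291 against 3.99, 2.94 and 2.05, a log2 change of 2.71 (SE 0.462, edgeR adjusted p = 0.000119), the largest among the members. Its groups did not overlap, but the low normal counts set the fold only loosely, and the gene was left out by stricter filters on low values. Cdt1 (Entrez 67177, chr8:122568015-122573130), which carries the ring to the origin, read 2.72, 3.67 and 2.91 CPM in normal libraries and 9.54, 9.66 and 4.98 CPM in lesions (log2 1.38, SE 0.268, edgeR adjusted p = 0.000463). Lesion 3 was the lowest lesion for both loaders.

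Gmnn encodes geminin, the inhibitor of CDT1, and did not follow Cdt1. It read 4.23, 2.35 and 2.91 CPM in normal libraries and 1.28, 1.82 and 4.54 CPM in lesions, so that lesions 1 and 2 were below every normal library and lesion 3 above. Over all libraries its log2 change was -0.32 (95% interval -1.12 to 0.49, edgeR adjusted p = 0.582). Without lesion 3 the change was -1.02 (edgeR adjusted p = 0.0253), and without replicate 3 of both groups -1.07 (edgeR adjusted p = 0.0276). The ratio of Cdt1 to Gmnn in FPKM was 0.287, 0.697 and 0.446 in normal libraries and 3.32, 2.37 and 0.489 in lesions, and the groups overlapped (exact permutation test, two-sided p = 0.2, 0.2 after Benjamini-Hochberg adjustment over 6 ratios).

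Among subunits of the origin recognition complex, Orc6 read 1.06, 2.06 and 2.18 CPM in normal libraries and 2.71, 2.38 and 2.2 CPM in lesions (log2 0.45, edgeR adjusted p = 0.335). Orc1, the subunit whose protein is periodic in the cell cycle, was too low to test, at 0.436 to 1.03 CPM and 0.57 to 1.32 CPM. None of the other origin complex and MCM-related genes Orc2, Orc3, Orc4, Orc5, Mcmbp, Mcm8 and Mcm9 was called, with log2 changes from -0.51 to 0.22. On library size alone, a scaling that shifts the median of all genes by -0.14, Orc2 and Orc3 were called lower.

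Because so many licensing genes moved together, the promoter windows of the members were read from RefSeq (GRCm38.p6), from 250 bases before to 50 after each annotated start. A window was found for 38 of the 47 members, in 43 entries, and those without one were Ccne2, Gins1, Gins2, Gins4, Gmnn, Mcm4, Pole, Prim2 and Rfc2. The 4 called members with the lowest p and a window are shown first, with CCAAT boxes (CCAAT on either strand, the letters bound by NF-Y) and E2F-type sites (TTTCCCGC, TTTGGCGC, TTTCGCGC or TTTGCCGC on either strand) in capitals.
Rrm2 promoter (chr12:24708004-24708303, plus strand): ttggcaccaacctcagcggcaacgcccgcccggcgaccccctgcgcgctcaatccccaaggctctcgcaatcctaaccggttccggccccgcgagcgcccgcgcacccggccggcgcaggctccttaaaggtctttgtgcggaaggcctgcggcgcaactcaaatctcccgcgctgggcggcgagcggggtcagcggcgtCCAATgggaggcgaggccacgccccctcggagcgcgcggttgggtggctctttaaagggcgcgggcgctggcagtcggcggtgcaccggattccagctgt
Mcm10 promoter (chr2:5012742-5013041, minus strand): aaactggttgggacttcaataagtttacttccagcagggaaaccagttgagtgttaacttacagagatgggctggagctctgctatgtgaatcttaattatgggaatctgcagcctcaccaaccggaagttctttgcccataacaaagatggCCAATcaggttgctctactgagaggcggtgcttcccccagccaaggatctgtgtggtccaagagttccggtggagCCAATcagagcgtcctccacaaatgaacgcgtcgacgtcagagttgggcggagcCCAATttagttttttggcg
Mcm2 promoter (chr6:88898731-88899030, minus strand): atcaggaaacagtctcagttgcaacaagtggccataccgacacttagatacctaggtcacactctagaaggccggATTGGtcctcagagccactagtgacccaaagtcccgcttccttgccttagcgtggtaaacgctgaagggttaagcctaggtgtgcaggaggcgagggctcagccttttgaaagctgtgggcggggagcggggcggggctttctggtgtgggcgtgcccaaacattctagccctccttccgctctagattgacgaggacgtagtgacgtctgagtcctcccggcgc
Mcm5 promoter (chr8:75109259-75109558, plus strand): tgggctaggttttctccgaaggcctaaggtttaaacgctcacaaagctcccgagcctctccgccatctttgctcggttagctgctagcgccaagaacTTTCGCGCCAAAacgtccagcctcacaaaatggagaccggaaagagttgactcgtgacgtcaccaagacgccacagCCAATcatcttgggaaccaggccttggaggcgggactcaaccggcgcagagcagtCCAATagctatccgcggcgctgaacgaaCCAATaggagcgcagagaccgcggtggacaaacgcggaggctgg

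The Rrm2, Mcm10 and Mcm2 windows held no E2F-type match, and the Mcm5 window held 2 that overlap each other. Each window held at least 1 CCAAT box, 3 of them in Mcm10 and 3 in Mcm5. The Mcm10 window ends in letters that an E2F-type match could continue beyond its edge, and bases past the edge were not read. Over all members an E2F-type match stood in 14 of 43 entries (32.6%), against 744 of 32851 RefSeq promoter windows of the same length (2.26%). By member it was found in 8 of the 14 called higher with a window and in 6 of the other 24. CCAAT boxes stood in 55.8% of member entries against 37.4% of all windows, GC boxes (GGGCGG on either strand) in 74.4% against 35.7%, and the letters TTTGAA on either strand in 11.6% against 17.9%. A match is a description of letters and shows no binding.

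The E2F-type letters of the called members are printed with up to 8 bases on each side, because several ring genes and both loaders hold them. Capitals mark the E2F-type letters, which are longer where matches overlap, and in the second of the Mcm7 sites the last capital is also the opening letter of a CCAAT box.
Cdc6 site (chr11:98908005-98908028, plus strand): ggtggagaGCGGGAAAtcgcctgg
Cdt1 site (chr8:122568039-122568062, plus strand): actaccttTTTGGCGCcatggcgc
Lig1 site (chr7:13278844-13278867, plus strand): caaagtgcGCGCGAAAtctgtgtg
Mcm3 site (chr1:20820278-20820301, minus strand): cttccgtgGCGGGAAAacttggga
Mcm3 site (chr1:20820263-20820282, minus strand): tgggaagtTTTGGCGCcaag
Mcm5 site (chr8:75109348-75109375, plus strand): ccaagaacTTTCGCGCCAAAacgtccag
Mcm6 site (chr1:128359796-128359823, minus strand): cgtatgctTTTGGCGCGAAAagtgcgtg
Mcm6 site (chr1:128359737-128359760, minus strand): tggacgggTTTGGCGCgaagtagc
Mcm7 site (chr5:138172033-138172056, minus strand): ttcgaaccGCGGGAAAcagggtgt
Mcm7 site (chr5:138171852-138171875, minus strand): tgacgacgTTTCGCGCcaatttcg
Pold1 site (chr7:44548766-44548784, minus strand): atcttgtgGCGGGAAAagc

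Both Mcm3 and Mcm6 have a site that reads TTTGGCGC, as does Cdt1, while Cdc6, Mcm3, Mcm7 and Pold1 have one that reads GCGGGAAA, the reverse complement of TTTCCCGC. The Mcm3 windows share bases with each other. Mcm2, with the second largest change in the ring, had no such match in its window.

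Helicase activation did not follow licensing. Of its 6 members 4 were tested, none was called higher, Mcm10 was called lower, and the median log2 change was -0.28. Mcm10 (Entrez 70024, chr2:4990724-5012791), a DNA-binding scaffold needed to start unwinding, read 59.4, 61.1 and 63.2 CPM in normal libraries and 35.5, 34.6 and 30.6 CPM in lesions. The counts behind these levels were 393, 416 and 435 in normal libraries and 249, 247 and 209 in lesions. The groups were far apart, with a log2 change of -0.87 (SE 0.0857, edgeR adjusted p = 1.32e-07). In normal libraries Mcm10 was, at 15.4 ± 0.489 FPKM (SD, n = 3), the highest of the 47 members per gene length, and in lesions it was the fourth at 8.43 ± 0.634 FPKM. Its annotated exons share no base with another gene.

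Cdc45, the helicase cofactor, read 2.12, 0.734 and 0.872 CPM in normal libraries and 2.42, 2.52 and 1.9 CPM in lesions (log2 0.88, SE 0.41, edgeR adjusted p = 0.1). Normal 1 overlapped the lesions, and without it Cdc45 was called higher (log2 1.49, edgeR adjusted p = 0.0223). Of the GINS complex, the ring's other cofactor, Gins4 read 10.1, 7.64 and 9.88 CPM and 7.27, 5.04 and 8.19 CPM (log2 -0.43, edgeR adjusted p = 0.0993), and Gins1 had a log2 change of -0.13 (edgeR adjusted p = 0.813). Gins4 was called lower without lesion 3 and on library size alone. Gins2 had 1, 4 and 4 counts in normal libraries and 19, 6 and 4 in lesions, and Gins3 lay at 0 to 1.21 CPM and 0.585 to 1.42 CPM. Both were too low to test. Annotated Gins2 exons share 67.3% of their bases with Gse1 on the opposite strand, and whether counting used strand is not given in the sources used here, so Gins2 reads cannot be told apart from Gse1 reads.

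Of the E-type cyclins, which drive entry into S phase with CDK2, Ccne1 was called higher and Ccne2 was not. Ccne1 (Entrez 12447, chr7:38097984-38107490) read 1.81, 2.5 and 2.18 CPM in normal libraries and 3.85, 6.02 and 5.27 CPM in lesions (log2 1.21, SE 0.285, edgeR adjusted p = 0.00228). Ccne2 read 2.72, 1.03 and 0.872 CPM and 1.85, 2.24 and 0.585 CPM, with the groups overlapping (log2 0.04, 95% interval -0.96 to 1.03, edgeR adjusted p = 0.966). That interval holds changes in either direction, so no direction can be given at this depth.

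**Figure D3:**
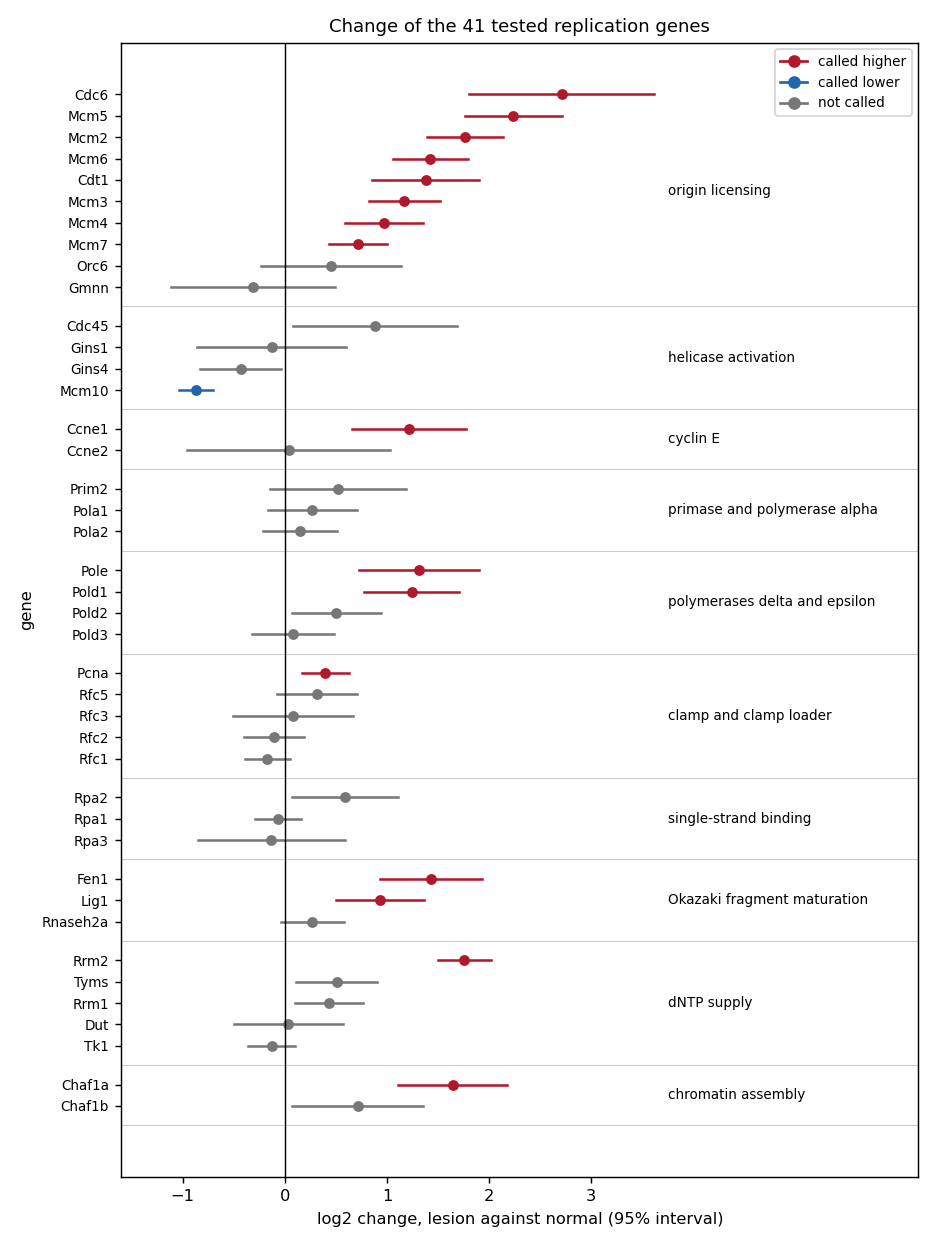
Log2 change of lesion against normal for the 41 tested members (x axis), grouped by role. Each point has its approximate 95% interval, and red is called higher, blue called lower and grey not called. Licensing genes lie furthest to the right, up to Cdc6 at 2.71, and Mcm10 at -0.87 is the blue point.

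None of the primase and polymerase alpha genes, which lay the RNA and DNA primers, was called among the 3 tested, with a median log2 change of 0.27. Pola1, the catalytic subunit, read 6.35, 5.43 and 7.56 CPM in normal libraries and 9.26, 5.32 and 8.78 CPM in lesions (edgeR adjusted p = 0.364). Pola2, its regulatory subunit, had a log2 change of 0.15 (edgeR adjusted p = 0.563), and Prim2, the large primase subunit, one of 0.52 (edgeR adjusted p = 0.242). Prim1, the catalytic primase subunit, was too low to test, at 0.872 to 1.06 CPM and 1.12 to 1.57 CPM.

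The catalytic subunits of both elongating polymerases rose. Pold1 (Entrez 18971, chr7:44532744-44548815), the catalytic subunit of the lagging-strand polymerase delta, read 3.33, 2.64 and 3.49 CPM in normal libraries and 7.55, 8.96 and 5.85 CPM in lesions (log2 1.24, SE 0.238, edgeR adjusted p = 0.000386). Pole (Entrez 18973, chr5:110286319-110337468), that of the leading-strand polymerase epsilon, read 4.99, 1.91 and 3.49 CPM and 6.84, 11.6 and 7.32 CPM (log2 1.31, SE 0.3, edgeR adjusted p = 0.00325). Both pairs of groups were apart. The Pole call was lost without replicate 2 of both groups, at a log2 change of 0.74 (edgeR adjusted p = 0.0774). It held without normal 2 alone and without lesion 2 alone. The call was also lost on log2(FPKM + 0.1) and on unfiltered log2(FPKM + 1) (limma adjusted p = 0.051 and 0.0541).

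The accessory subunits among the members were not called. Pold2, which links the polymerase delta subunits, read 4.69, 5.43 and 8.86 CPM and 10.1, 9.24 and 7.61 CPM (log2 0.50, edgeR adjusted p = 0.0823). Pold2 was called higher without normal 3 (log2 0.83, edgeR adjusted p = 0.0108), without lesion 3 (log2 0.60, edgeR adjusted p = 0.0158) and without replicate 3 of both groups (log2 0.93, edgeR adjusted p = 0.000368). Pold3, which binds PCNA, had a log2 change of 0.08 (edgeR adjusted p = 0.799), and Pole2, the second subunit of polymerase epsilon, was too low to test at 0.734 to 1.45 CPM and 1.26 to 2.56 CPM. The ratio of Pold1 to Pold3 in FPKM was 0.302, 0.233 and 0.515 in normal libraries and 0.896, 0.731 and 0.586 in lesions, without overlap (exact permutation test, two-sided p = 0.1, 0.15 adjusted). Pold1 was called and Pold3 was not, so this ratio restates that difference.

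Of the clamp and its loader, the clamp gene was called higher and the loader genes were not. Pcna (Entrez 18538, chr2:132249286-132253180), the sliding clamp, read 16.8, 16.4 and 15.8 CPM in normal libraries and 23.5, 19.7 and 21.4 CPM in lesions, all above the normal range, a log2 change of 0.40 (SE 0.119, edgeR adjusted p = 0.0133). The Pcna call did not hold with DESeq2 (adjusted p = 0.0927), with scaling by library size alone (edgeR adjusted p = 0.0981), with the closest libraries summed (edgeR adjusted p = 0.0503), or without normal 3, lesion 1 or replicate 1 (edgeR adjusted p = 0.0521, 0.0773 and 0.125). In lesions Pcna had the highest FPKM of the members, 16.9 ± 1.5 (SD, n = 3) against 12.9 ± 0.37 in normal libraries.

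The RFC complex opens the clamp and closes it on DNA, and of its 4 tested genes none was called, while Rfc4 was too low to test at 0.756 to 1.02 CPM and 0.855 to 1.12 CPM. Rfc1, the large subunit, read 25.7, 28.6 and 27.0 CPM and 21.8, 22.8 and 27.7 CPM (log2 -0.17, edgeR adjusted p = 0.249). Lesions 1 and 2 were below every normal library and lesion 3 was within their range, and without lesion 3 Rfc1 was called lower (log2 -0.29, edgeR adjusted p = 0.0365), as it was on library size alone (log2 -0.31, edgeR adjusted p = 0.0308). Rfc2, Rfc3 and Rfc5, small subunits, had log2 changes of -0.11, 0.08 and 0.32 (edgeR adjusted p = 0.611, 0.859 and 0.228).

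Replication protein A coats single-stranded DNA, and none of its genes was called. Rpa1, the main DNA-binding subunit, read 22.8, 25.4 and 25.0 CPM in normal libraries and 21.8, 26.2 and 21.8 CPM in lesions, with overlap and a log2 change of -0.07 (95% interval -0.29 to 0.15, edgeR adjusted p = 0.667). Rpa2, the subunit phosphorylated in the cell cycle, read 3.78, 3.08 and 2.91 CPM and 3.85, 6.3 and 4.54 CPM (log2 0.59, edgeR adjusted p = 0.0889), and Rpa3, the smallest subunit, had a log2 change of -0.13 (edgeR adjusted p = 0.806).

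Okazaki fragments are trimmed and joined by FEN1 and DNA ligase I, and the genes of both were called higher. Fen1 (Entrez 14156, chr19:10199132-10204393), the flap endonuclease, read 3.48, 1.76 and 4.21 CPM in normal libraries and 9.4, 8.82 and 7.32 CPM in lesions (log2 1.43, SE 0.254, edgeR adjusted p = 0.000176). Lig1 (Entrez 16881, chr7:13277175-13311426), the ligase, read 5.29, 4.85 and 3.2 CPM and 7.69, 9.94 and 7.76 CPM (log2 0.93, SE 0.22, edgeR adjusted p = 0.00241). Neither gene had overlapping groups. Rnaseh2a, the catalytic subunit of the nuclease that removes ribonucleotides from DNA, read 9.67, 9.99 and 10.6 CPM and 11.3, 11.1 and 14.2 CPM, a difference without overlap that was not called (log2 0.27, edgeR adjusted p = 0.193).

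Annotated exons of 17 members share bases with another gene, 5 of them among those called higher, and such reads cannot be told apart where counting ignores strand. Fen1 exons share 78.8% of their bases with the antisense gene Gm10143, whose counts are not used here, and 5.37% with Tmem258, which had 149 counts in normal libraries and 212 in lesions. Chaf1a exons share 52.5% with Ubxn6 on the opposite strand, with 485 and 517 counts. The shared part was 7.25% for Mcm7 with Ap4m1, 5.79% for Lig1 with Zswim9 and 0.699% for Pole with Gm15792. Mcm7 also shares 1.45% with Cops6 on the opposite strand, which had 875 counts in normal libraries and 720 in lesions. The part of these neighbours in the calls was not tested.

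Among the 5 genes of deoxynucleotide supply, Rrm2 was called higher and Rrm1, Tyms, Tk1 and Dut were not. Rrm2 (Entrez 20135, chr12:24708254-24714146), the small subunit of ribonucleotide reductase whose protein is made in S phase, read 9.83, 7.93 and 8.72 CPM in normal libraries and 32.6, 30.2 and 26.6 CPM in lesions. Every lesion was far above every normal library, with means of 8.82 ± 0.952 and 29.8 ± 3.02 CPM (SD, n = 3 each) and a log2 change of 1.76 (SE 0.133, edgeR adjusted p = 2.78e-09), the lowest p among the members. Per gene length it went from the ninth to the second highest member, 4.02 ± 0.428 to 13.6 ± 1.34 FPKM, while Tk1 stood beside it in lesions at 13.5 ± 0.348 FPKM, within the SD of Rrm2.

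Rrm1, the large subunit of the same enzyme, read 9.37, 8.08 and 7.12 CPM in normal libraries and 10.8, 9.94 and 12.4 CPM in lesions. Its groups did not overlap and its log2 change was 0.43 (SE 0.17, edgeR adjusted p = 0.052), just short of a call, which it passed without normal 1 (edgeR adjusted p = 0.0436), with upper quartile scaling (edgeR adjusted p = 0.0476) and with a stricter count filter (edgeR adjusted p = 0.0469). The ratio of Rrm2 to Rrm1 in FPKM was 1.92, 1.8 and 2.25 in normal libraries and 5.52, 5.58 and 3.93 in lesions, without overlap (exact permutation test, two-sided p = 0.1, 0.15 adjusted over 6 ratios). Rrm2 had the larger change of the pair, so this ratio restates that difference.

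Rrm2b, the small subunit used outside S phase and in DNA repair, read 3.48, 3.97 and 3.2 CPM in normal libraries and 4.27, 2.52 and 4.1 CPM in lesions (log2 0.03, 95% interval -0.51 to 0.58, edgeR adjusted p = 0.944). The ratio of Rrm2 to Rrm2b in FPKM was 6.36, 4.5 and 6.13 in normal libraries and 17.2, 27.0 and 14.6 in lesions, again without overlap (exact permutation test, two-sided p = 0.1, 0.15 adjusted). With Rrm2b at a log2 change of 0.03, this ratio restates the change of Rrm2 and is not separate evidence.

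Tyms, thymidylate synthase, which makes dTMP anew, read 5.29, 4.41 and 4.79 CPM and 6.55, 7.14 and 6.88 CPM, groups that did not overlap (log2 0.51, SE 0.202, edgeR adjusted p = 0.0563). Tk1, cytosolic thymidine kinase of the salvage route, read 19.7, 22.6 and 19 CPM and 18.4, 18.5 and 19.2 CPM (log2 -0.13, 95% interval -0.36 to 0.10, edgeR adjusted p = 0.416). Its upper bound lies below the lower bound of Rrm2, which is 1.496. The ratio of Tk1 to Tk2, the mitochondrial kinase, was 2.68, 2.81 and 2.77 in normal libraries and 2.43, 2.75 and 2.64 in lesions on the FPKM scale, with overlap (exact permutation test, two-sided p = 0.2). Dut, which keeps uracil out of DNA by destroying dUTP, read 4.23, 2.94 and 3.05 CPM and 3.7, 3.5 and 3.22 CPM (log2 0.03, edgeR adjusted p = 0.943).

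**Figure D4:**
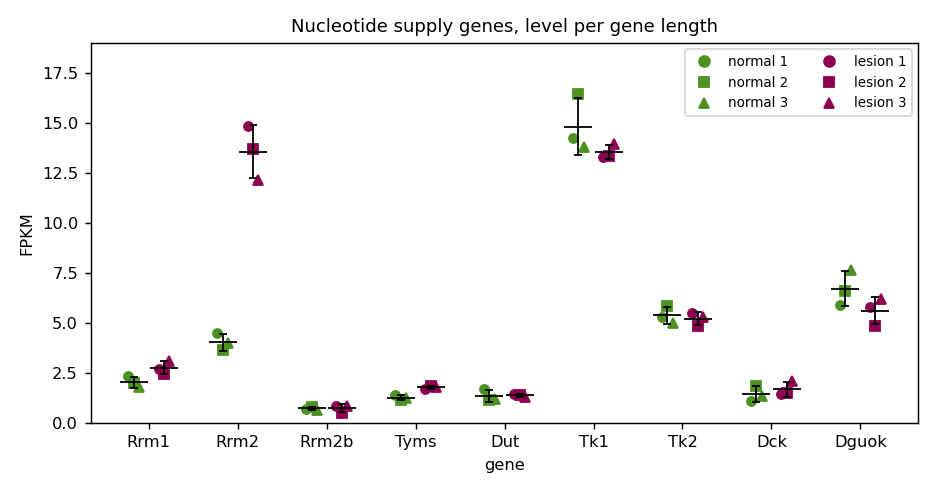
FPKM (linear axis) of the 5 member genes of nucleotide supply with Rrm2b, Tk2, Dck and Dguok in each library, normal in green and lesion in purple, with the mean and SD of 3 libraries in black. Rrm2 lies at 12.1 to 14.8 FPKM in lesions against 3.61 to 4.46 FPKM in normal libraries, whereas Tk1 overlaps between the groups.

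Chromatin assembly factor 1 places new histones behind the fork. Its large subunit gene Chaf1a (Entrez 27221, chr17:56040416-56068026) read 2.27, 2.64 and 1.6 CPM in normal libraries and 7.69, 7.56 and 5.12 CPM in lesions, without overlap (log2 1.64, SE 0.272, edgeR adjusted p = 8.74e-05). Its partner Chaf1b read 2.27, 1.47 and 2.18 CPM and 4.13, 3.08 and 2.49 CPM, also without overlap, and was not called (log2 0.71, SE 0.325, edgeR adjusted p = 0.0936). Chaf1b was called higher without lesion 3 (edgeR adjusted p = 0.0336) and without replicate 3 of both groups (edgeR adjusted p = 0.0404).

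Set beside the members were 62 other replication genes, origin-firing, fork protection, topoisomerase, nucleotide and chromatin genes among them. Of these 53 were tested, 11 were called higher (20.8%), 4 lower (7.55%) and 38 not, with a median log2 change of 0.09. Of all tested genes 18.7% were called higher and 18.4% lower. Without a count filter 16 were called higher, in a fit that called 2554 of all 18337 genes higher. Those it added, Ticrr, Exo1, Chtf18, Dscc1 and Dctd, had at most 7 counts summed over the normal libraries. Among the 11 were Cad and Umps, which open and close the making of UMP. Cad read 20.7, 21.6 and 23.1 CPM in normal libraries and 47.3, 48.6 and 42.3 CPM in lesions (log2 1.08, SE 0.0987, edgeR adjusted p = 4.36e-08), and Umps rose by 0.45 (edgeR adjusted p = 0.000849).

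Uhrf1, which brings the maintenance methyltransferase to newly copied DNA, read 0.454, 1.62 and 1.31 CPM and 11.7, 8.82 and 8.19 CPM (log2 3.06, edgeR adjusted p = 1.73e-07), and the methyltransferase gene Dnmt1 rose by 0.49 (edgeR adjusted p = 0.00148). Timeless, a fork protection factor, read 7.71, 7.78 and 10.2 CPM and 15.7, 20.9 and 17.1 CPM (log2 1.06, edgeR adjusted p = 3.24e-05). Mtbp, which acts in origin firing, had a log2 change of 1.30 (edgeR adjusted p = 0.00489). The topoisomerase genes Top1 and Top2b, expressed outside the cycle as well, had lower levels in lesions, with log2 changes of -0.33 and -0.34 (edgeR adjusted p = 0.00146 and 0.00211). The others called were Top2a, Tipin, Pold4, Nme1 and Clspn, higher, and Samhd1 and Rbbp4, lower. Pold4, an accessory subunit of polymerase delta, passed the count filter through its lesion libraries alone.

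The salvage genes Tk2, Dck and Dguok, whose action is not confined to S phase, were not called. Tk2 had a log2 change of -0.05 (95% interval -0.32 to 0.23, edgeR adjusted p = 0.819), Dck, the deoxycytidine kinase, one of 0.23 (95% interval -0.27 to 0.73, edgeR adjusted p = 0.507), and Dguok, the mitochondrial deoxyguanosine kinase, one of -0.26 (95% interval -0.63 to 0.12, edgeR adjusted p = 0.309).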

How the data were processed

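RNA from 6 dissected FFPE liver regions was depleted of ribosomal RNA and sequenced after 15 cycles of PCR from about 500 ng, per the labels' protocols. No molecular identifiers are mentioned, so PCR copies add error beyond that of counting. Per the submitters' processing notes, which assign no roles, the build was mm10 and the tools were STAR 2.5.2b, DESeq2 1.24.0, CASAVA 1.8 and cutadapt 1.18. What counted the reads, with which annotation and strand, is not given in the sources used here. The authors deposited whole-number counts per gene and library, and FPKM values scaled for gene length and library size. The authors' deposited comparison holds a mean normalised signal (baseMean), a log2 fold change with its standard error, a test score (stat) and p-values.

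Counts were tested with edgeR 4.0.16 (R 4.3.3): default expression filter, TMM scaling, robust quasi-likelihood test, two-sided, group as the only term, Benjamini-Hochberg adjustment over 12506 genes and a threshold of 0.05. Standard errors come from the log2 change and its F statistic (change over root F). The 95% intervals apply a normal quantile to these standard errors, so they can be narrower than the test allows. Ratios of members were compared with an exact permutation test. Several pairs join a gene with a large change to one with a small change, so their ratios restate those changes. The script was tested on simulated data. Alternatives were other scalings (RLE, upper quartile, library size alone, abundant and small RNA left out), other count filters, DESeq2 1.42.0, limma-voom and log2 FPKM fits (limma 3.58.1), a fit that was not robust, other thresholds, a replicate block, the closest libraries summed (lesions 1 and 2 added together, and likewise normal libraries 2 and 3), and each library or replicate number left out. Where an arm then had few libraries, its spread was taken from the pooled fit.

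The members and lists were chosen with earlier results of these data known. All members are accounted for. Of the other replication genes, values are given for the 8 lowest p among those called, for Rrm2b, Tk2, Dck and Dguok, and for the origin complex and MCM-related genes as a range, the last chosen after their values were seen. Of the marker lists, the proliferation markers and those called are named, with the highest of other lists where it adds a value, and 1 marker is not reported here; Marco, Alb, Spp1, Alas2 and Jchain had the highest mean over all libraries in theirs, as did Cd3e, Csf3r, Stab2 and Reln. Promoter windows and coordinates are RefSeq GRCm38.p6, the assembly behind mm10, and exon overlaps use GENCODE vM21.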

Additional observations from a re-analysis of the deposited data

How the results depend on the processing

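Of the 17 called members, no change reversed sign under any alternative run. Over their 388 tests under alternatives, 379 kept the call and 9 lost it, all of Pcna and Pole. The number of members called higher, 16, lay between 12 (log2 change of at least 1) and 21 (adjusted p under 0.1), and at 15 to 18 with 1 library or replicate number left out. The number called lower, 1, was 3 on library size alone, 2 at an adjusted p under 0.1 and 0 at a log2 change of at least 1 (Mcm10, at an unadjusted p of 3.64e-09, was the 1 member left out by that size), and 1 to 4 with a library or replicate left out, the 4 without lesion 3. The other replication genes called higher, 11, were 16 without a count filter (Ticrr, Exo1, Chtf18, Dscc1 and Dctd added), 6 with the closest libraries summed, 7 at an adjusted p under 0.01, 7 at a log2 change of at least 1, and 6 to 13 with a library or replicate left out. Those called lower, 4, were 8 on library size alone, 2 with libraries summed, 0 at a log2 change of at least 1, and 1 to 6 with a library or replicate left out. Library size alone shifted the median of all genes by -0.14 and called 1474 genes higher and 3615 lower, where TMM called 2340 and 2296. Without a count filter Gins2 was called higher. The cause of these differences was not tested.

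Members not called gave 26 reversed signs in 542 tests. On library size alone the log2 change was -0.10 for Ccne2, -0.061 for Pold3, -0.057 for Rfc3 and -0.11 for Dut, and with libraries summed -0.12 for Ccne2 and -0.023 for Dut. With a library or replicate left out it ran from -1.07 to 0.26 for Gmnn, -0.53 to 0.71 for Ccne2, -0.13 to 0.30 for Pold3, -0.12 to 0.18 for Rfc3, -0.26 to 0.10 for Rpa3, -0.012 to 0.34 for Pola2, -0.41 to 0.047 for Gins1 and -0.069 to 0.21 for Dut. The design text sets each lesion beside its adjacent region but ties no numbers together. Deviations of same-numbered libraries from their group means had correlations of 0.011, -0.021 and -0.022, and differently numbered ones reached 0.036. Not every library correlated best with its own number. With 3 libraries in each group, such values cannot show whether libraries of the same number share an animal. With the replicate block 16 members were higher and 1 lower, and 11 and 3 of the other genes. Depth limits the low members: Cdc6 was not tested with at least 20 counts in 3 libraries or a mean FPKM of at least 0.5.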
